A study of Mus musculus with 12 samples.

Results

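The 50 genes described here encode the machinery that separates chromosomes in mitosis: mitotic kinases and spindle checkpoint proteins, cyclins with CDK1 and the proteins that start anaphase, kinetochore and centromere proteins, spindle motors, condensin subunits and the transcription factor FOXM1. They were chosen by name as members of these groups, and all 50 were found once each among the 37991 genes of the counts. All 50 also passed the filter on low counts, which kept 12837 genes. Polyadenylated RNA was sequenced from MEL cells, mouse erythroleukemia cells that mature toward red cells when induced, in 12 libraries, 3 in each of 4 groups. The delta45 group was LDB1 knockdown cells that expressed an LDB1 construct named delta 4/5. The FL group was LDB1 knockdown cells that expressed full-length LDB1. The KD group had the LDB1 knockdown and no construct, and the control group was the MEL line without knockdown. All 4 groups had been induced, and delta45, FL and KD shared the knockdown. LDB1 is an adaptor that joins the erythroid factors GATA1 and TAL1 through LMO2. The sources used here do not give the inducing agent, the means of knockdown, what delta 4/5 lacks, or whether a derived line was 1 clone.

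Cells that enter mitosis condense their chromosomes, attach them to spindle microtubules at kinetochores, and wait at the spindle checkpoint until every kinetochore is attached. CDK1 with cyclin B drives entry, and its destruction by the anaphase-promoting complex with CDC20 lets the cells divide. Most of these genes are transcribed late in the cell cycle under the MuvB complex with B-MYB and FOXM1, and are held down in resting cells by the DREAM complex. Maturing erythroid precursors divide a limited number of times and then leave the cell cycle. In RNA from a whole culture, fewer cells in mitosis and less mitotic RNA per cell cannot be told apart.

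Late cell cycle promoters are known for a CHR element, spelled TTTGAA, and for CCAAT boxes, spelled CCAAT, so both were searched on both strands from 250 bases before to 50 bases after the gene starts that RefSeq gives on GRCm38.p6. Entries were found for 41 of the 50 genes, in 46 windows, and 37 of these genes had 1 window. Windows of the same gene can overlap, so a site may be counted more than once. Aurkb, Ccna2, Foxm1, Incenp, Kif20a, Nsl1, Smc4, Spc24 and Tpx2 had no entry. TTTGAA or its reverse complement stood in 27 of the 46 windows (58.7%), against 17.9% of all 32851 promoter windows. CCAAT or its reverse complement stood in 34 windows (73.9%), against 37.4% of all windows. Both stood in 24 windows (52.2%), against 6.95% of all. Near the start, from 100 bases before to 50 after, the CHR letters stood in 52.2% of the windows of mitotic genes and in 8.01% of all. A match is a description of letters, not a bound site.

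Below are 5 of these promoters, written 5′ to 3′ on the strand of the gene, with CHR and CCAAT matches of either strand in capitals. Ncapd2, Espl1 and Ccnb2 are shown because they had the smallest adjusted p between delta45 and FL among genes with 1 window that held both motifs. Cenpa and Mis12 are shown because each was the gene that was not called in 1 of the comparisons in which the other 49 were. Their windows are chr6:125191537-125191836 (minus strand), chr15:102296043-102296342 (plus), chr9:70421505-70421804 (minus), chr5:30666636-30666935 (plus) and chr11:71019361-71019660 (plus) on GRCm38.p6. These coordinates are not in mm9, the build of the counts.
Ncapd2: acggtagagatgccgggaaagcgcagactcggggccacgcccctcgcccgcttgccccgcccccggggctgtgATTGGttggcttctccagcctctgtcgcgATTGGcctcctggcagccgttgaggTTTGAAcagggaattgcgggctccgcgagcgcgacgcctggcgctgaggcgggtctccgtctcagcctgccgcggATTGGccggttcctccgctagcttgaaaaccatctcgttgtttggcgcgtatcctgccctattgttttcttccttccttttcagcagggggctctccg
Espl1: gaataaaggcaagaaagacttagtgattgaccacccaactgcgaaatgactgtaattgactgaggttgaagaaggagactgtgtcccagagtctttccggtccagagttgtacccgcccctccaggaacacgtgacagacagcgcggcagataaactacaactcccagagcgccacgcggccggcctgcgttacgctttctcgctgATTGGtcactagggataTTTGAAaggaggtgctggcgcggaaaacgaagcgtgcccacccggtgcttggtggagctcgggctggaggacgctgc
Ccnb2: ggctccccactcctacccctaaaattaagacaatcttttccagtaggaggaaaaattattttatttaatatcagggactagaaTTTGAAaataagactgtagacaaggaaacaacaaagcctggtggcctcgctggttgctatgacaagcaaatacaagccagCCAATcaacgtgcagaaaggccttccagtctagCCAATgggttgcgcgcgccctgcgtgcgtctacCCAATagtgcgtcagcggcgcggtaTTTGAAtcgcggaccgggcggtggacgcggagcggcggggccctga
Cenpa: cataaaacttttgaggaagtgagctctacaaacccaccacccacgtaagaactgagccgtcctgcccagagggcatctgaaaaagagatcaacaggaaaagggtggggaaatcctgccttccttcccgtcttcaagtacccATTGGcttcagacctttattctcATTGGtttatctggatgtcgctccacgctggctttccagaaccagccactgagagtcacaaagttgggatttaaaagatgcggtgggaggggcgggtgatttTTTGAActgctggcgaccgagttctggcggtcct
Mis12: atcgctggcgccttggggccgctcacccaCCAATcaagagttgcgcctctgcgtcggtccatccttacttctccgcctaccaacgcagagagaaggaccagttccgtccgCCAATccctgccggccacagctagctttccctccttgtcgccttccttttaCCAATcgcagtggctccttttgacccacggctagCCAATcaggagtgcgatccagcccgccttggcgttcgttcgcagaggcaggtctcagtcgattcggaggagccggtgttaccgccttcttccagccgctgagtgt
Counting from the start, with base 1 the first transcribed base, the CHR match began at -27 in Espl1, at -167 and 5 in Ccnb2, at -123 in Ncapd2 and at 17 in Cenpa. Mis12 had no CHR match and 4 CCAAT matches. Over the 46 windows the 32 CHR matches had a median position of -7 and the 64 CCAAT matches a median of -66. These matches are not all separate sites, since windows of the same gene can overlap.

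**Figure D1:**
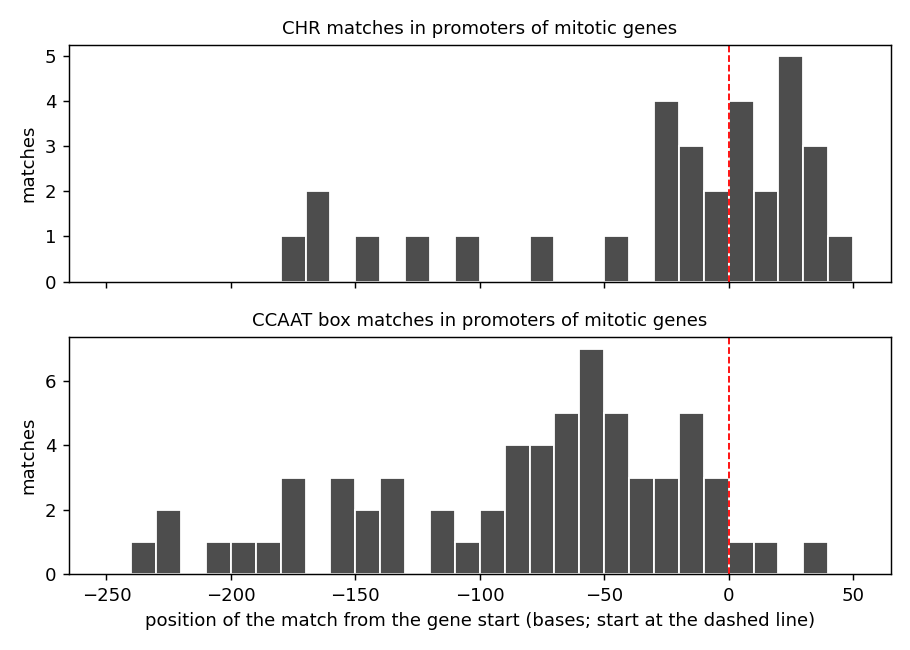
Positions of CHR (upper panel) and CCAAT (lower panel) matches from the gene start, in bases, in 46 promoter windows of 41 mitotic genes; bars count matches per 10 bases. CHR matches lie mostly close to the start (median -7), and CCAAT matches lie mostly before it (median -66).

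Libraries held 8783970 to 20464959 gene reads. The 50 genes held 95143 to 163028 reads per delta45 library, 15944 to 32467 per FL library, 46293 to 80961 per KD library and 72004 to 140706 per control library. The lowest count of any of them in any library was 8 reads, for Cenpm. Ldb1, the targeted gene, followed the labels, at 750 to 781 CPM (reads per gene scaled to the library's size, after TMM adjustment) in delta45, 3210 to 3696 CPM in FL, 97.1 to 159.2 CPM in KD and 637 to 773 CPM in control. The 8 erythroid markers were detected in every group, and their summed level was 2960 to 3390 CPM in delta45, 17200 to 21200 CPM in FL, 2820 to 5580 CPM in KD and 8710 to 8930 CPM in control. Markers of T, myeloid and mast cells summed to at most 0.438, 4.76 and 2.23 CPM in any library, and Cd8a, Mcpt8 and Tpsb2 had 0 reads in every group. The 4 stromal and endothelial markers summed to 11.8 to 13.5 CPM in delta45, 22.4 to 29.7 CPM in FL, 22.0 to 51.5 CPM in KD and 37.9 to 42.3 CPM in control. The share of reads that aligned to several places also differed by group, at 38.69 to 39.22% in delta45, 42.26 to 47.12% in FL, 42.69 to 48.51% in KD and 50.6 to 53.31% in control, and its part in the results below was not tested. The labels do not say whether the 3 libraries of each group are separate cultures, so p-values measure the spread between these libraries, which may be technical.

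The mitotic genes were lowest with full-length LDB1 and high both in control and with the delta 4/5 construct. Together they took 0.764 to 0.797% of gene reads in delta45, 0.163 to 0.168% in FL, 0.489 to 0.628% in KD and 0.739 to 0.843% in control. The FL libraries did not overlap with any other library in this share, and the KD libraries lay below all delta45 and control libraries. By gene, all 3 FL libraries lay below the other 9 libraries for 47 of the 50 genes, against 13.4% of all genes tested. The 3 exceptions were Cenpa, Mis12 and Smc4. All 3 control libraries lay above the other 9 for 17 genes (13.4% of all genes tested), and all 3 delta45 libraries for 15 genes (14.9% of all genes tested). In group means, 18 genes ran in the order control, delta45, KD and FL from high to low, 16 in the order delta45, control, KD and FL, 7 in the order delta45, KD, control and FL, and 5 in the order control, KD, delta45 and FL. The other 4 genes each had an order of its own. No gene had its 3 KD libraries above all the others or below all the others, as 7.50% and 6.75% of all genes tested did. The median coefficient of variation of these genes between libraries was 6.20% in delta45, 9.27% in FL, 12.2% in KD and 10.8% in control, against 8.2%, 9.9%, 20% and 11.5% over all tested genes. The widest was 48.9%, for Cenpk in control.

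**Figure D2:**
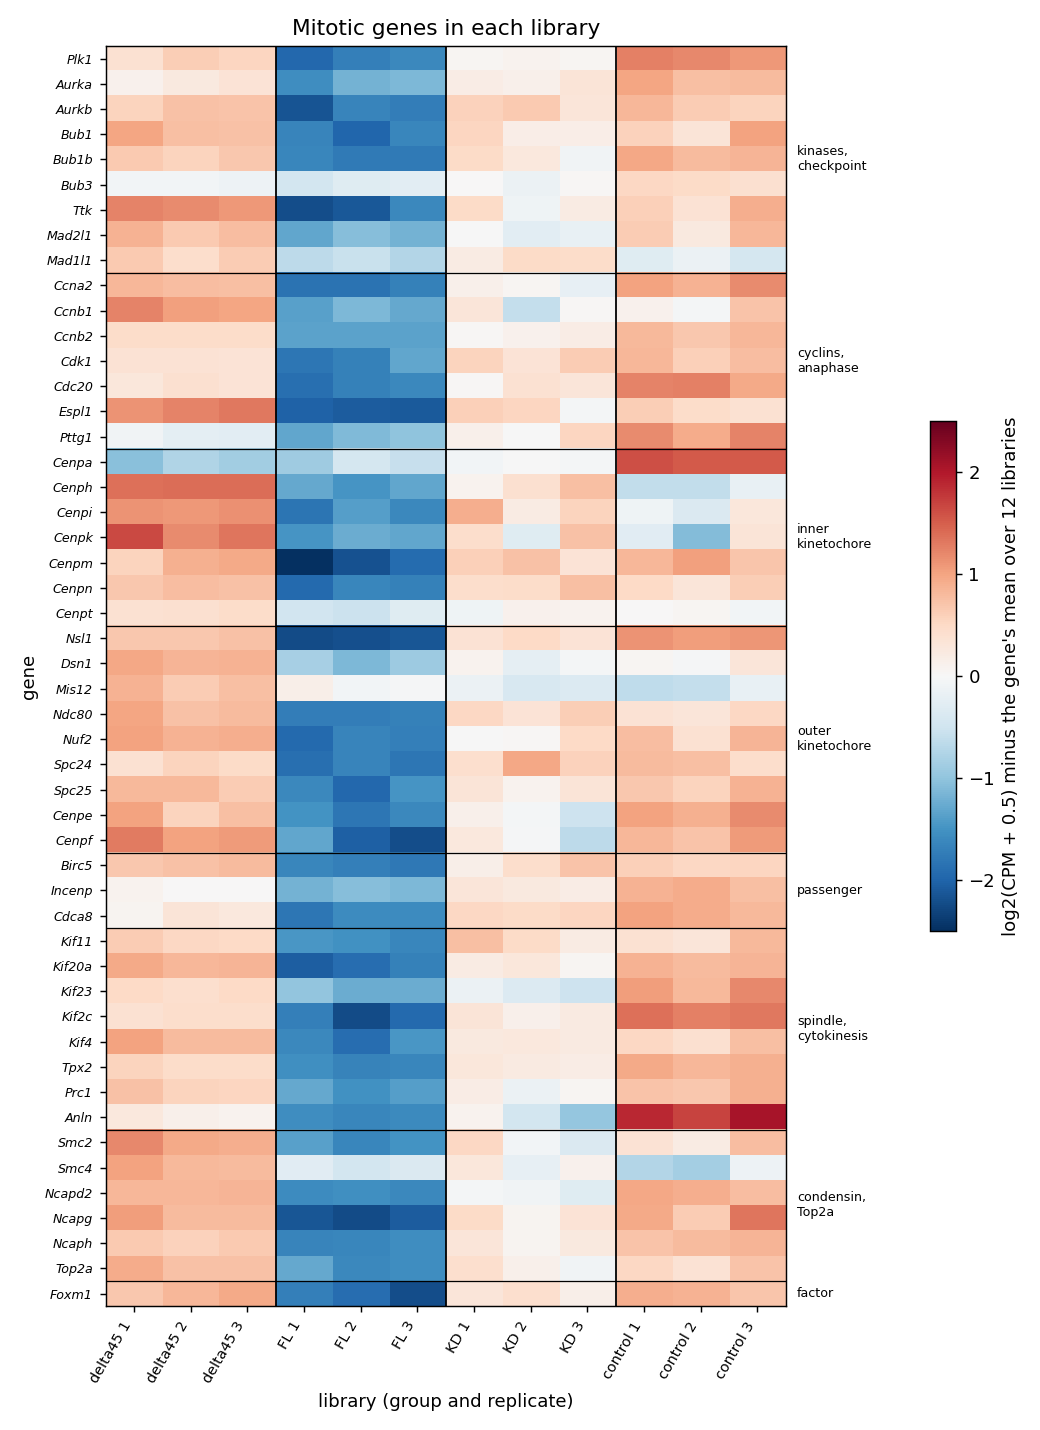
Level of each of the 50 mitotic genes (rows, by role) in each of the 12 libraries (columns), as log2(CPM + 0.5) minus the gene's mean over the libraries; red is above and blue below that mean. The 3 FL columns are blue for nearly every gene, while Cenpa and Anln are reddest in the control columns and Mis12 and Smc4 are not at their lowest in FL.

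Full-length LDB1 against knockdown set the line with the full-length construct beside knockdown cells without a construct. Of the 50 mitotic genes, 49 were lower in FL, where 31.7% of all tested genes were lower and 58.0% were called in either direction (edgeR's quasi-likelihood test, Benjamini-Hochberg adjusted p under 0.05 over all 12837 genes). None was called higher, against 26.3% of all tested genes, with 1 higher at an unadjusted p under 0.05 and 1 by DESeq2, in both cases Mis12. The median log2 change was -1.84 (3.58-fold lower), against -0.06 over all tested genes, and 19 of the 50 were more than 4-fold lower, as were 6.65% of all tested genes. Log2 changes of single genes are given with their standard error. For all 49 the 3 FL libraries lay below the 3 KD libraries, as they did for 31.3% of all tested genes. Ldb1 was itself 26.5-fold higher in FL than in KD, and 4.79-fold higher than in control. Of the 8 erythroid markers, 5 were higher in FL and 3 not called, and of 9 interferon response genes tested all were lower. The full list of 10 interferon genes summed to 169 to 176 CPM in FL and to 274, 4510 and 11200 CPM in KD replicates 1, 2 and 3. The part of either in the fall of the mitotic genes was not tested.

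Kinases and checkpoint genes were lower in FL throughout, all 9 of them. Plk1, the polo kinase of mitotic entry and spindle assembly, had 82.1, 96.6 and 92 CPM in delta45, 15.8, 18.9 and 20.4 CPM in FL, 65.6, 67 and 65.2 CPM in KD and 153, 146 and 133 CPM in control. FL libraries were the lowest and control libraries the highest, with no overlap between any groups, and Plk1 was 3.57-fold lower in FL than in KD (log2 change -1.84 ± 0.118, edgeR adjusted p = 6.79e-08). Aurkb, the Aurora kinase that corrects faulty attachments, had 100.4, 114 and 112 CPM in delta45, 14.7, 21.2 and 20 CPM in FL, 101, 107 and 83.3 CPM in KD and 120.1, 105 and 99.3 CPM in control. Its FL libraries stood apart from the other 9, which overlapped, and it was 5.21-fold lower in FL than in KD (log2 change -2.38 ± 0.152, edgeR adjusted p = 6.41e-08). Ttk, the checkpoint kinase MPS1, had 86.9, 82.9 and 77.7 CPM in delta45, 7.4, 8.02 and 11.6 CPM in FL, 51.1, 33.6 and 41.8 CPM in KD and 55, 47.1 and 68.9 CPM in control. Its delta45 libraries lay above all others and its KD and control libraries overlapped, and it was 4.61-fold lower in FL than in KD (log2 change -2.21 ± 0.206, edgeR adjusted p = 1.72e-06). The pseudokinase and kinase of the checkpoint, Bub1b and Bub1, were 3.92-fold and 4.19-fold lower, Aurka 2.81-fold and the checkpoint protein gene Mad2l1 2.06-fold. Bub3, a checkpoint protein that also has roles outside mitosis, changed least. Its CPM was 141, 158 and 161 in FL and 196, 176 and 199 in KD (log2 change -0.31 ± 0.0929, edgeR adjusted p = 0.011), and the call was lost without FL replicate 1 or KD replicate 1.

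Cyclins, CDK1 and anaphase genes were all lower in FL, 7 of 7. Ccna2, the cyclin of S phase and early mitosis, had 243, 234 and 229 CPM in delta45, 37.5, 37.5 and 41.8 CPM in FL, 149, 141 and 119 CPM in KD and 274, 249 and 309 CPM in control. No groups overlapped, and Ccna2 was 3.49-fold lower in FL than in KD (log2 change -1.80 ± 0.117, edgeR adjusted p = 7.41e-08). Ccnb2, a B-type cyclin, had 140.4, 140.2 and 141 CPM in delta45, 40, 39.8 and 40 CPM in FL, 104, 109 and 116 CPM in KD and 179, 162 and 180.3 CPM in control. Its replicates were close together in each group, and it was 2.75-fold lower in FL than in KD (log2 change -1.46 ± 0.0901, edgeR adjusted p = 4.66e-08). Espl1, which encodes separase, the protease that cuts cohesin at anaphase, had 243, 263 and 277 CPM in delta45, 26.9, 25.8 and 25.4 CPM in FL, 167, 162 and 107 CPM in KD and 169, 153 and 144 CPM in control. The delta45 libraries were the highest and KD and control overlapped, and Espl1 was 5.59-fold lower in FL than in KD (log2 change -2.48 ± 0.156, edgeR adjusted p = 5.44e-08), the largest change of the 7. Cdk1 and Cdc20, the activator of the anaphase-promoting complex, were 4.32-fold and 3.96-fold lower, and Ccnb1 was 2.35-fold lower with wider spread (log2 change -1.23 ± 0.231, edgeR adjusted p = 0.000557). Pttg1, which encodes securin, the inhibitor of separase, had 38.7, 34.4 and 34.3 CPM in delta45, 16.4, 18.9 and 20.2 CPM in FL, 44.9, 40.6 and 59.7 CPM in KD and 93.8, 78.4 and 97.3 CPM in control. Its control libraries stood above the rest and its FL libraries below them (log2 change -1.38 ± 0.155, edgeR adjusted p = 8.52e-06). Ccnb1, Ccnb2 and Kif4 each have an annotated pseudogene named after them, so their values are uncertain as far as reads were shared with it.

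Centromere and inner kinetochore genes were lower in FL as well, 7 of 7. Cenpn, which reads the CENP-A nucleosome, had 33.8, 36 and 35.4 CPM in delta45, 5.11, 6.39 and 6.18 CPM in FL, 28.8, 29.1 and 35.6 CPM in KD and 29.9, 25.9 and 32.5 CPM in control. Its delta45, KD and control libraries lay close to one another, with FL far below, and it was 5.27-fold lower in FL than in KD (log2 change -2.40 ± 0.148, edgeR adjusted p = 4.64e-08). Cenpm, an inner kinetochore subunit, was 8.8-fold lower, the largest fold of all 50, on the low levels of 0.833, 1.16 and 1.47 CPM in FL and 10.9, 11.9 and 9.02 CPM in KD (log2 change -3.14 ± 0.240, edgeR adjusted p = 3e-07). Cenpt, which links the inner kinetochore to the NDC80 complex, had 31.4, 32.1 and 33.1 CPM in delta45, 17.2, 16.5 and 19.4 CPM in FL, 22.2, 25.8 and 25.7 CPM in KD and 24.2, 25 and 22.9 CPM in control. It changed by the smallest amount of the 7 (log2 change -0.47 ± 0.116, edgeR adjusted p = 0.00389). Cenpa, the histone H3 variant that marks centromeres, was 1.49-fold lower, at 89.5, 123 and 112 CPM in FL and 158, 164 and 161 CPM in KD (log2 change -0.57 ± 0.119, edgeR adjusted p = 0.00116).

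In the outer kinetochore, which binds microtubules, 8 of 9 genes were lower in FL. Nsl1, a subunit of the MIS12 complex, had 54.7, 54.8 and 57.3 CPM in delta45, 6.88, 7.09 and 7.36 CPM in FL, 44.3, 48.4 and 43.6 CPM in KD and 75.3, 71.2 and 74.1 CPM in control. No groups overlapped, and it had the smallest adjusted p of all 50 genes, with FL 6.37-fold below KD (log2 change -2.67 ± 0.105, edgeR adjusted p = 2.13e-09). Mis12, which gives that complex its name, went otherwise, with 123, 104 and 113 CPM in delta45, 74.5, 64.2 and 65.4 CPM in FL, 60.8, 50.5 and 53 CPM in KD and 42.9, 43.9 and 58.6 CPM in control. Its FL libraries all lay above its KD libraries, but the difference was not called (log2 change 0.31 ± 0.136, edgeR adjusted p = 0.0652, and 0.0135 to 0.831 over the alternatives), and it was called higher without KD replicate 1. Dsn1, of the same complex, was 1.87-fold lower. All 4 subunits of the NDC80 complex fell together, Ndc80 4.82-fold, Nuf2 4.02-fold, Spc24 5.58-fold and Spc25 3.92-fold. Ndc80, which holds the microtubule, had 69.9, 58.9 and 61.1 CPM in delta45, 10.2, 10.2 and 10.6 CPM in FL, 50.5, 44.9 and 54.5 CPM in KD and 45.3, 43.6 and 50.4 CPM in control. Its delta45 libraries were the highest, KD and control overlapped, and FL lay below all of them (log2 change -2.27 ± 0.122, edgeR adjusted p = 1.56e-08). The corona proteins Cenpe, a motor, and Cenpf were 2.86-fold and 3.28-fold lower.

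Chromosomal passenger genes, whose products place Aurora B on chromosomes, were lower in FL in all 3 cases. Cdca8, which encodes borealin, had 87.5, 104 and 100.3 CPM in delta45, 23.4, 27.4 and 27.7 CPM in FL, 119, 116 and 122 CPM in KD and 168, 159 and 146 CPM in control. No groups overlapped, with control the highest, and FL was 4.53-fold below KD (log2 change -2.18 ± 0.111, edgeR adjusted p = 1.08e-08). Birc5 (survivin) had 121, 126 and 131 CPM in delta45, 24.2, 22.9 and 21.5 CPM in FL, 84, 104 and 124 CPM in KD and 114, 108 and 111 CPM in control. FL again stood apart and the other groups lay close together (log2 change -2.18 ± 0.133, edgeR adjusted p = 4.35e-08). Incenp, the scaffold of the complex, had 132, 124 and 125 CPM in delta45, 54.8, 59.2 and 56.4 CPM in FL, 152, 148 and 141 CPM in KD and 226, 237 and 209.7 CPM in control. No groups overlapped, delta45 lay below KD, and the fall in FL was the smallest of the 3 (log2 change -1.37 ± 0.0908, edgeR adjusted p = 8.55e-08).

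All 8 genes of spindle motors, midzone and cytokinesis were lower in FL. Tpx2, which activates Aurora A on spindle microtubules, had 210.5, 197 and 195 CPM in delta45, 49.2, 44.4 and 45.5 CPM in FL, 173, 165 and 161 CPM in KD and 275, 255 and 265 CPM in control. All 4 groups were separate, and FL was 3.59-fold below KD (log2 change -1.84 ± 0.0911, edgeR adjusted p = 8.75e-09). Kif20a, a kinesin of cytokinesis, had 153, 141 and 142 CPM in delta45, 18.4, 20.6 and 24.2 CPM in FL, 91.4, 96.3 and 81.6 CPM in KD and 145, 136 and 142 CPM in control. Its delta45 and control libraries overlapped above the KD libraries, and it was 4.24-fold lower in FL than in KD (log2 change -2.08 ± 0.117, edgeR adjusted p = 2.17e-08), although 29.3% of its annotated exon bases are shared with Cdc23 on the other strand and the kit did not mark strand. The same limit holds for other members with smaller shares, among them Kif4 (15.1%), Ncapg (13.4%), Ccna2 (12.5%), Prc1 (11.1%) and Mis12 (7.69%). Kif2c, a microtubule-shortening kinesin, was 4.68-fold lower, Kif11 (Eg5) 4.13-fold, and the midzone bundler gene Prc1 2.71-fold. Kif4, a chromokinesin, had 134, 116 and 116 CPM in delta45, 21.5, 17.3 and 23.9 CPM in FL, 78.5, 80.4 and 77.7 CPM in KD and 95.3, 88.7 and 112 CPM in control. No groups overlapped, with KD between FL and control, and FL was 3.75-fold below KD (log2 change -1.91 ± 0.135, edgeR adjusted p = 1.56e-07). Kif23, a motor of the central spindle, changed least, at 1.79-fold. Anln (anillin), which organises the cleavage furrow, was 2.32-fold lower, at 48, 45 and 46.7 CPM in FL and 150.0, 102 and 71.9 CPM in KD (log2 change -1.22 ± 0.204, edgeR adjusted p = 0.000237).

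Condensin and topoisomerase genes, which shape mitotic chromosomes, were lower in FL, 6 of 6. Ncaph, the kleisin of condensin I, had 104, 98.4 and 105 CPM in delta45, 20.6, 20.9 and 22.1 CPM in FL, 81.7, 68.8 and 78.2 CPM in KD and 109, 114 and 119.8 CPM in control. No groups overlapped, and it was 3.59-fold lower in FL than in KD (log2 change -1.84 ± 0.102, edgeR adjusted p = 1.91e-08). Ncapg, another condensin I subunit, was 5.6-fold lower, Ncapd2 2.7-fold and Top2a, the topoisomerase that untangles sister chromatids, 3.13-fold. Smc2, an ATPase of condensin, had 224, 187 and 181 CPM in delta45, 37.4, 30.9 and 34.1 CPM in FL, 138, 92.5 and 74.7 CPM in KD and 124, 111 and 166 CPM in control. KD and control overlapped between delta45 above and FL below, and FL was 2.99-fold below KD (log2 change -1.58 ± 0.213, edgeR adjusted p = 4.08e-05). Smc4, the ATPase partner of SMC2, had 644, 565 and 557 CPM in delta45, 262, 234 and 249.8 CPM in FL, 389, 277 and 345 CPM in KD and 193, 179 and 294 CPM in control. Its FL libraries lay only just below its KD libraries (log2 change -0.44 ± 0.175, edgeR adjusted p = 0.0466), and the call was lost without any 1 FL library and without KD replicate 1 or 3. Foxm1, the transcription factor of late cell cycle genes, had 86.3, 96.3 and 104 CPM in delta45, 16, 14.1 and 11.2 CPM in FL, 66.2, 72.4 and 59.5 CPM in KD and 102, 99.2 and 86.9 CPM in control. Its delta45 and control libraries overlapped above the KD libraries, and it was 4.82-fold lower in FL than in KD (log2 change -2.27 ± 0.146, edgeR adjusted p = 6.91e-08).

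Per kilobase of exon in GENCODE M21, mean levels of Top2a were 124 CPM per kb in delta45, 25.5 in FL, 79.8 in KD and 103 in control. Ccnb2 stood at 91.8 CPM per kb in delta45, 26.1 in FL, 71.8 in KD and 113 in control, and Smc4 at 113 in delta45, 47.8 in FL, 64.7 in KD and 42.6 in control. On this scale Top2a was the highest of the 50 in delta45 and KD, Smc4 in FL and Ccnb2 in control.

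**Figure D3:**
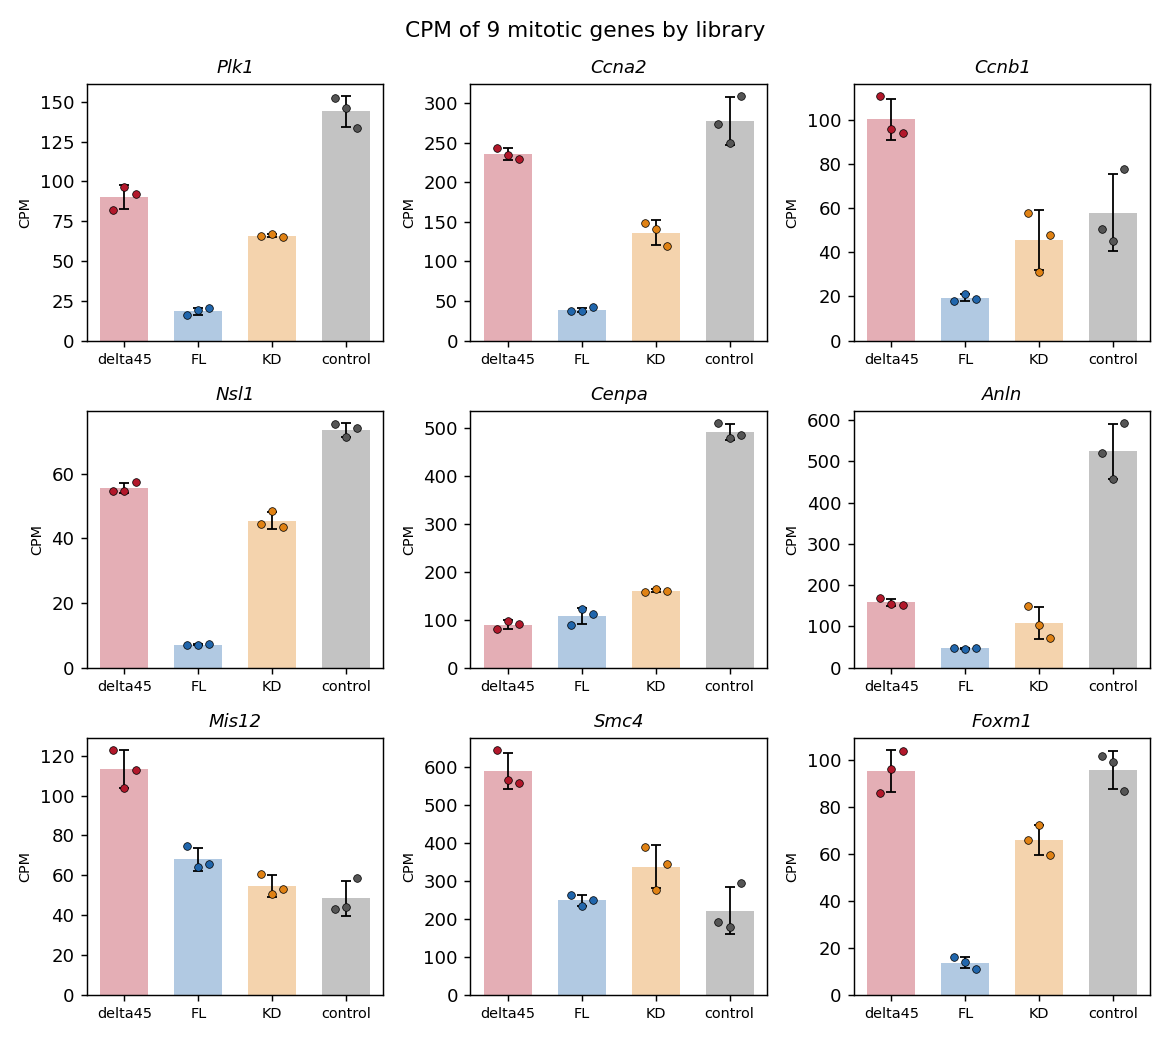
CPM of 9 mitotic genes in delta45, FL, KD and control; points are libraries, bars are means and whiskers are SD (n = 3 each), on axes that start at 0. Plk1, Ccna2, Ccnb1, Nsl1 and Foxm1 are lowest in FL, Cenpa and Anln are far higher in control than in any derived line, and Mis12 and Smc4 are highest in delta45.

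The delta 4/5 construct against full-length LDB1 set the altered construct beside the full-length protein in the same knockdown background. Of the 50 mitotic genes, 49 were higher in delta45 than in FL, where 27.0% of all tested genes were higher and 52.8% were called in either direction (edgeR, adjusted p under 0.05). None was called lower, against 25.8% of all tested genes, with 1 lower at an unadjusted p under 0.05 and 1 by DESeq2, in both cases Cenpa. The median log2 change was 2.37 (5.15-fold higher), against 0.01 over all tested genes, and 34 of the 50 were more than 4-fold higher, as were 4.55% of all tested genes. For these 49 genes all delta45 libraries lay above all FL libraries, as they did for 35.2% of all tested genes. Both lines carried the knockdown, but Ldb1 mRNA was 4.49-fold lower in delta45 than in FL, so the construct and its amount cannot be told apart. The erythroid markers went the other way, 7 of 8 lower in delta45, and their part was not tested.

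By role, the separase gene Espl1 was 10-fold higher in delta45 than in FL (log2 change 3.33 ± 0.160, edgeR adjusted p = 4.1e-09) and Ttk 9.01-fold (log2 change 3.17 ± 0.209, edgeR adjusted p = 5.01e-08). Cenpm was 10.5-fold higher (log2 change 3.39 ± 0.237, edgeR adjusted p = 8.44e-08), the largest change, again on few reads in FL. Nsl1 was 7.79-fold higher (log2 change 2.96 ± 0.105, edgeR adjusted p = 7.67e-10) and Cenpn 5.93-fold (log2 change 2.57 ± 0.147, edgeR adjusted p = 1.48e-08). Among motors Kif20a was 6.86-fold higher (log2 change 2.78 ± 0.119, edgeR adjusted p = 1.88e-09), and among condensin genes Ncapg 8.38-fold and Ncapd2 5.31-fold (log2 change 2.41 ± 0.102, edgeR adjusted p = 1.82e-09). Plk1 was 4.89-fold (log2 change 2.29 ± 0.119, edgeR adjusted p = 7.03e-09), Ccna2 6.04-fold (log2 change 2.59 ± 0.120, edgeR adjusted p = 3e-09), Birc5 5.53-fold (log2 change 2.47 ± 0.134, edgeR adjusted p = 9.53e-09) and Foxm1 6.98-fold higher (log2 change 2.80 ± 0.148, edgeR adjusted p = 7.66e-09). The smallest called differences were in Bub3 (log2 change 0.25 ± 0.0927, edgeR adjusted p = 0.0358), Mis12 (log2 change 0.74 ± 0.135, edgeR adjusted p = 0.000484), Cenpt (log2 change 0.86 ± 0.115, edgeR adjusted p = 3.47e-05) and Pttg1 (log2 change 0.95 ± 0.154, edgeR adjusted p = 0.000182). The Bub3 call was lost without any 1 delta45 or FL library. Cenpa alone was not called, at 80.8, 98.3 and 90.4 CPM in delta45 and 89.5, 123 and 112 CPM in FL, libraries that overlapped (log2 change -0.27 ± 0.119, edgeR adjusted p = 0.075, and 0.0114 to 0.961 over the alternatives), and it was called lower without delta45 replicate 2 or FL replicate 1.

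The delta 4/5 construct against knockdown set the line with that construct beside knockdown cells without one. Here 34 of the 50 mitotic genes were higher in delta45 and 3 lower, where 29.2% and 30.7% of all tested genes were higher and lower (edgeR, adjusted p under 0.05). The median log2 change was 0.52 (1.43-fold higher), against -0.01 over all tested genes, and 0 genes were more than 4-fold higher, against 2.23% of all tested genes. The same KD libraries served here and for full-length LDB1. Ldb1 was 5.91-fold higher in delta45 than in KD, and the interferon genes summed to 134 to 144 CPM in delta45 and to 274, 4510 and 11200 CPM in KD replicates 1, 2 and 3, whose part was not tested. Condensin and topoisomerase genes rose in all 6 cases and outer kinetochore genes in 8 of 9, with Spc24 not called. Ncapd2, a condensin I subunit, had 367, 368 and 375 CPM in delta45, 69.7, 71.8 and 67.7 CPM in FL, 201, 196 and 168 CPM in KD and 407, 388 and 357 CPM in control. Its delta45 libraries lay near control and above KD (log2 change 0.98 ± 0.0970, edgeR adjusted p = 4.18e-06). Cenpf was 2.34-fold higher (log2 change 1.23 ± 0.244, edgeR adjusted p = 0.000853), Ccnb1 2.2-fold (log2 change 1.13 ± 0.222, edgeR adjusted p = 0.000773), Cenpk 2.1-fold and Mis12 2.07-fold. Against this, Cenpa was 1.79-fold lower in delta45 (log2 change -0.84 ± 0.119, edgeR adjusted p = 7.17e-05), Pttg1 1.35-fold lower (log2 change -0.43 ± 0.149, edgeR adjusted p = 0.0228), and Cdca8 1.22-fold lower (log2 change -0.29 ± 0.104, edgeR adjusted p = 0.03). Calls for Pttg1 and Cdca8 were both lost without delta45 replicate 3, which left 1 lower gene, that of Pttg1 also without delta45 replicate 2 or KD replicate 3, and that of Cdca8 also without delta45 replicate 1 or KD replicate 1 or 2. Of the other chromosomal passenger genes, Birc5 and Incenp were not called by edgeR, but DESeq2 called Birc5 higher and Incenp lower in delta45, as did edgeR without KD replicate 3, and Birc5 was also called with RLE scaling and with library totals only.

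**Figure D4:**
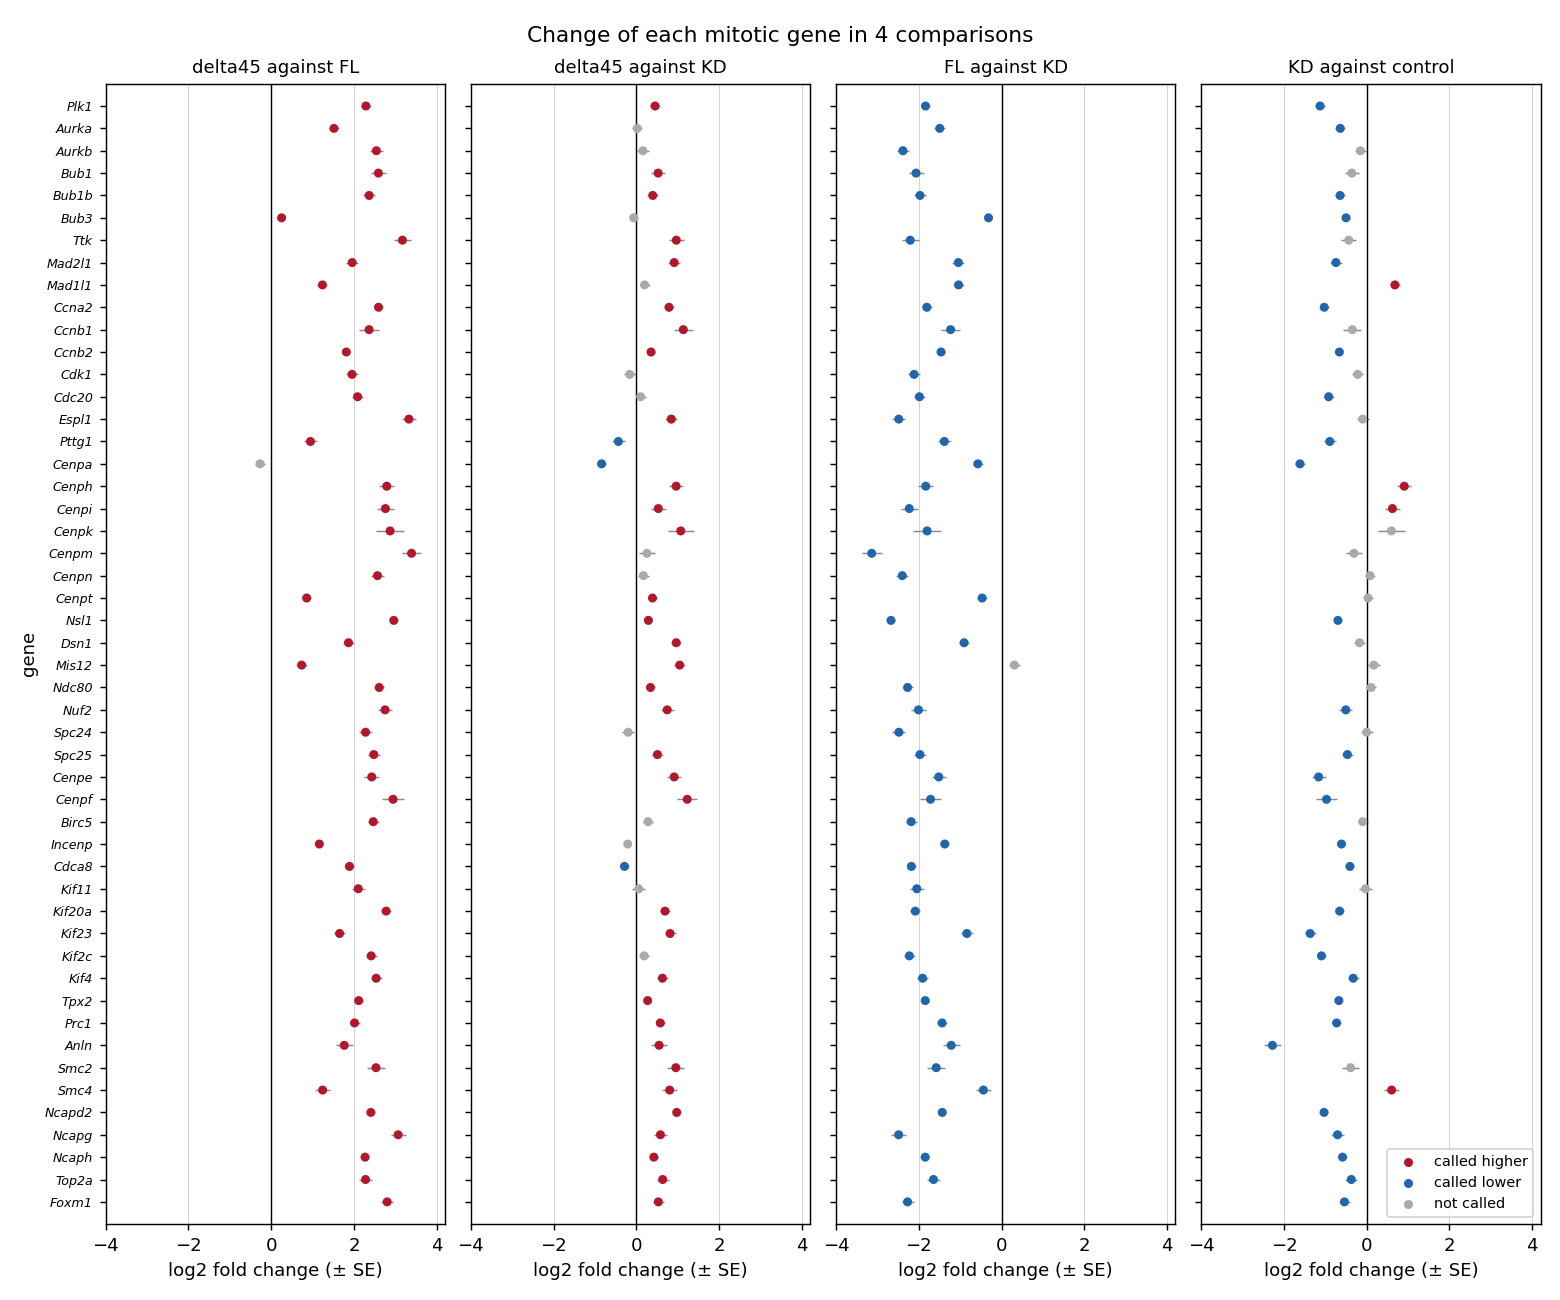
Log2 fold change of each mitotic gene (points, with SE bars) in 4 comparisons; red was called higher, blue called lower and grey not called by edgeR at an adjusted p under 0.05. Nearly all points lie right of 0 for delta45 against FL (49 higher) and left of 0 for FL against KD (49 lower), while delta45 against KD (34 higher, 3 lower) and KD against control (4 higher, 29 lower) sit closer to 0.

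The KD group was set against control, both under induction, with Ldb1 mRNA 5.54-fold lower in KD. Of the mitotic genes, 29 were lower in KD and 4 higher, where 24.1% and 25.6% of all tested genes were lower and higher and 49.7% were called in either direction (edgeR, adjusted p under 0.05). The other 17 were not called. Of the 29 lower genes, Kif4 (edgeR adjusted p = 0.0489) lost its call in 8 of the 14 alternatives. Top2a (edgeR adjusted p = 0.0481) lost it in 6, Nuf2 in 4 and Spc25 in 1. The median log2 change was -0.48, against 0.02 over all tested genes, and 1 gene was more than 4-fold lower, against 3.51% of all tested genes. For 27 genes all KD libraries lay below all control libraries, as for 25.3% of all tested genes. The falls were widest among spindle, midzone and cytokinesis genes, 7 of 8 lower with a median of -0.70. Anln had 169, 155 and 151 CPM in delta45, 48, 45 and 46.7 CPM in FL, 150.0, 102 and 71.9 CPM in KD and 521, 458 and 593 CPM in control. Every control library stood above every other library, and KD was 4.85-fold below control (log2 change -2.28 ± 0.206, edgeR adjusted p = 2.58e-06). Kif23 was 2.58-fold lower (log2 change -1.37 ± 0.133, edgeR adjusted p = 4.64e-06), Kif2c 2.13-fold and Tpx2 1.59-fold (log2 change -0.67 ± 0.0874, edgeR adjusted p = 4.34e-05). Kif11 was not called, at 162, 132 and 109.5 CPM in KD and 125, 118 and 168 CPM in control.

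Cenpa fell by more than any other kinetochore gene, with 80.8, 98.3 and 90.4 CPM in delta45, 89.5, 123 and 112 CPM in FL, 158, 164 and 161 CPM in KD and 511, 479.9 and 485 CPM in control. KD was 3.06-fold below control (log2 change -1.61 ± 0.121, edgeR adjusted p = 5.33e-07), and control stood far above all derived libraries. Among kinases, Plk1 was 2.18-fold lower in KD than in control (log2 change -1.13 ± 0.112, edgeR adjusted p = 5.32e-06). Ccna2 was 2.04-fold lower (log2 change -1.03 ± 0.113, edgeR adjusted p = 1.21e-05), Cdc20 1.89-fold, Ncapd2 2.04-fold (log2 change -1.03 ± 0.0972, edgeR adjusted p = 3.54e-06), Nsl1 1.62-fold (log2 change -0.70 ± 0.0925, edgeR adjusted p = 5.12e-05), Incenp 1.52-fold (log2 change -0.61 ± 0.0884, edgeR adjusted p = 0.000103) and Foxm1 1.45-fold (log2 change -0.54 ± 0.134, edgeR adjusted p = 0.00494). Of the 7 centromere and inner kinetochore genes, Cenpa was lower, Cenph and Cenpi were higher and 4 were not called. Cenph, an inner kinetochore subunit, had 71.6, 72.6 and 72.3 CPM in delta45, 10.9, 9.42 and 10.8 CPM in FL, 29, 36.1 and 46.1 CPM in KD and 17.5, 17.6 and 23.9 CPM in control. It was 1.88-fold higher in KD (log2 change 0.91 ± 0.170, edgeR adjusted p = 0.000704), with no overlap between KD and control. Cenpi, its partner in the same complex, had 90.4, 88.2 and 92 CPM in delta45, 11.2, 15.6 and 13.2 CPM in FL, 77.9, 48.1 and 60.9 CPM in KD and 38.1, 32.3 and 50.8 CPM in control. KD and control overlapped there (log2 change 0.62 ± 0.189, edgeR adjusted p = 0.0153).

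Mad1l1, which recruits MAD2 to unattached kinetochores, was also higher in KD, with 81.9, 70.2 and 81.1 CPM in delta45, 32.8, 35 and 31.2 CPM in FL, 59.5, 72.1 and 71.5 CPM in KD and 41.9, 46.7 and 38 CPM in control. Its KD and delta45 libraries all lay above its control libraries (log2 change 0.68 ± 0.120, edgeR adjusted p = 0.000439). Smc4 was the fourth gene higher in KD (log2 change 0.60 ± 0.176, edgeR adjusted p = 0.0121), with overlapping libraries. The Smc4 and Cenpi calls were lost without control replicate 1 or control replicate 2, which left 2 higher genes, and that of Cenpi also without KD replicate 1. Mis12 was not called (log2 change 0.17 ± 0.137, edgeR adjusted p = 0.31). The summed interferon level was 274, 4510 and 11200 CPM in KD replicates 1, 2 and 3 and 1150 to 1370 CPM in control, and its part was not tested.

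Each construct line was also set against control. Ldb1 mRNA was 4.79-fold higher in FL than in control, and its part in the results was not tested. In delta45 it was 1.07-fold higher and not called (edgeR adjusted p = 0.607). FL against control gave 48 of the 50 genes lower and 1 higher, where 31.2% and 28.1% of all tested genes were lower and higher and 59.3% were called in either direction (edgeR, adjusted p under 0.05). The median log2 change was -2.32 (5.00-fold lower), and 37 genes were more than 4-fold lower, as were 8.21% of all tested genes. Anln was 11.3-fold, Cenpm 10.9-fold, Nsl1 10.3-fold and Kif2c 9.98-fold lower. Mis12 was the gene that was higher (log2 change 0.48 ± 0.137, edgeR adjusted p = 0.00797), a call lost when library totals alone were used for scaling. Smc4 was not called, at 262, 234 and 249.8 CPM in FL and 193, 179 and 294 CPM in control (log2 change 0.16 ± 0.175, edgeR adjusted p = 0.435, and 0.0131 to 0.904 over the alternatives), and it was called higher without control replicate 3.

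In delta45 against control the mitotic genes split, with 14 higher, 15 lower and 21 not called, close to the 31.9% higher and 32.5% lower of all tested genes (edgeR, adjusted p under 0.05), and a median log2 change of 0.00. Genes above control in delta45 included Cenph, 3.65-fold higher (log2 change 1.87 ± 0.170, edgeR adjusted p = 9.12e-07), Smc4 (log2 change 1.41 ± 0.178, edgeR adjusted p = 1.64e-05), Mis12 (log2 change 1.22 ± 0.137, edgeR adjusted p = 5.77e-06) and Cenpi (log2 change 1.15 ± 0.190, edgeR adjusted p = 0.000151). For all 4, every delta45 library lay above every other library. Cenpk, an inner kinetochore subunit in the same complex as CENP-H, had 38.7, 27.7 and 30.9 CPM in delta45, 3.96, 4.77 and 4.53 CPM in FL, 16.4, 9.55 and 20.1 CPM in KD and 9.64, 5.32 and 15.1 CPM in control. Its delta45 libraries lay above all others (log2 change 1.67 ± 0.318, edgeR adjusted p = 0.000483), although its control libraries ranged widely. Dsn1 had 77.4, 70.9 and 72.4 CPM in delta45, 21.9, 17.8 and 20.7 CPM in FL, 41.4, 33.5 and 38.1 CPM in KD and 40.7, 38.2 and 48.4 CPM in control. Its KD and control libraries overlapped, below delta45 (log2 change 0.79 ± 0.124, edgeR adjusted p = 0.000104). Ccnb1 had 111, 95.7 and 93.7 CPM in delta45, 18, 21.3 and 19 CPM in FL, 57.7, 30.9 and 47.6 CPM in KD and 50.6, 45.1 and 77.6 CPM in control, again highest in delta45 (log2 change 0.79 ± 0.220, edgeR adjusted p = 0.00677). Espl1 (log2 change 0.75 ± 0.145, edgeR adjusted p = 0.000545), Mad1l1 (log2 change 0.88 ± 0.119, edgeR adjusted p = 2.93e-05), Ttk (log2 change 0.53 ± 0.185, edgeR adjusted p = 0.0226) and Smc2 (log2 change 0.56 ± 0.204, edgeR adjusted p = 0.0269) were higher too. Cenpt (log2 change 0.42 ± 0.113, edgeR adjusted p = 0.00527), Ndc80 (log2 change 0.45 ± 0.111, edgeR adjusted p = 0.00335) and Kif4 (log2 change 0.30 ± 0.127, edgeR adjusted p = 0.0499) were higher by small amounts. The Kif4, Smc2 and Ttk calls were lost without delta45 replicate 1, control replicate 1 or control replicate 2, and that of Kif4 also without delta45 replicate 2. Genes below control in delta45 were led by Cenpa, 5.48-fold lower (log2 change -2.45 ± 0.124, edgeR adjusted p = 7.52e-09), and Anln, 3.31-fold lower (log2 change -1.73 ± 0.202, edgeR adjusted p = 8.36e-06). Others included Pttg1 (log2 change -1.33 ± 0.150, edgeR adjusted p = 6.13e-06), Kif2c (log2 change -0.90 ± 0.119, edgeR adjusted p = 2.32e-05), Incenp (log2 change -0.82 ± 0.0886, edgeR adjusted p = 4.27e-06) and Cdc20 (log2 change -0.82 ± 0.124, edgeR adjusted p = 7.63e-05). Foxm1 stood at 95.5 ± 8.85 CPM in delta45 and 96 ± 7.98 CPM in control (SD, n = 3 each) and was not called, with edgeR adjusted p = 0.97.

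Changes were also laid beside the promoter motifs. The 25 genes with a CHR match had a median log2 change of -1.91 in FL against KD and the 16 genes without one -1.66, and 25 and 15 of them were lower. In delta45 against FL these medians were 2.29 and 2.40. In KD against control, 18 of the 25 genes with a CHR match were lower and 7 not called by edgeR, and 5 of the 16 without one were lower and 3 higher, with medians of -0.64 and -0.24. For CCAAT, the medians in FL against KD were -1.83 in the 30 genes with a match and -1.38 in the 11 without. In KD against control these medians were -0.42 and -0.50. There, 17 of the 30 were lower and 2 higher, and 6 of the 11 were lower and 1 higher. Among all tested genes, 31.7% were lower in FL against KD, and 24.1% were lower and 25.6% higher in KD against control. No test was made of the differences between genes with and without a match.

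Other genes of mitosis, from lists of further kinetochore, spindle, cohesion, anaphase-promoting and regulatory genes, were measured beside the 50. In FL against KD, the counts below stand beside 31.7% lower and 26.3% higher among all tested genes. Of 27 other kinetochore and checkpoint genes, 21 were lower and 2 higher in FL than in KD, with a median log2 change of -1.51. Trip13, an ATPase that remodels MAD2, was at 5.64 ± 1.4 CPM in FL and 49.5 ± 6.95 CPM in KD (log2 change -3.11 ± 0.181, edgeR adjusted p = 2.85e-08), while Cenpb, a centromeric DNA-binding protein, was higher in FL (log2 change 0.59 ± 0.122, edgeR adjusted p = 0.00115). Of 31 other spindle, motor and cytokinesis genes, 24 were lower and 3 higher, with a median of -1.29. Kif22, a chromokinesin, stood at 20 ± 1.43 CPM in FL and 71.2 ± 2.58 CPM in KD (log2 change -1.83 ± 0.101, edgeR adjusted p = 1.86e-08), and the kinesin gene Kif2a was higher (log2 change 0.64 ± 0.173, edgeR adjusted p = 0.00664). Cohesion and condensin II genes moved less, 6 of 11 lower and 1 higher with a median of -0.35, Cdca5 (sororin) being lower (log2 change -2.74 ± 0.121, edgeR adjusted p = 4.22e-09) and the cohesin releaser gene Wapl higher, at 685 ± 87.3 CPM in FL and 342 ± 57.1 CPM in KD.

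Of 17 genes of the anaphase-promoting complex and its partners, 8 were lower and 3 higher in FL than in KD, and the median was 0.04, against 31.7% and 26.3% of all tested genes lower and higher. Ube2c, the E2 enzyme of that complex, was lower (log2 change -1.85 ± 0.127, edgeR adjusted p = 1.18e-07), and the subunit gene Anapc2 higher (log2 change 0.32 ± 0.0983, edgeR adjusted p = 0.0134). Of 10 genes for the CDK1 switch, 6 were lower, such as the phosphatase gene Cdc25c (log2 change -2.01 ± 0.125, edgeR adjusted p = 4.76e-08), and 3 higher, such as Cdc25b (log2 change 1.03 ± 0.0868, edgeR adjusted p = 6.68e-07). Among 11 genes of DREAM, MuvB and B-MYB, 5 were lower and 2 higher, not far from the shares of all tested genes. Mybl2, which encodes B-MYB, stood at 8.34 ± 0.757 CPM in FL and 59.9 ± 10.1 CPM in KD (log2 change -2.83 ± 0.140, edgeR adjusted p = 8.75e-09), and Rbl2, which encodes the p130 pocket protein of DREAM, was higher in FL (log2 change 0.77 ± 0.182, edgeR adjusted p = 0.00286).

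In delta45 against FL, 24 of the 27 kinetochore genes were higher and 3 lower (median 1.76), as were 28 and 1 of the 31 spindle genes (median 2.07). Among all tested genes, 27.0% were higher and 25.8% lower in that comparison. Spag5, a spindle protein, was at 183 ± 5.53 CPM in delta45 and 26.4 ± 3.48 CPM in FL (log2 change 2.79 ± 0.125, edgeR adjusted p = 2.44e-09), and Mybl2 at 69.2 ± 2.57 CPM in delta45 and 8.34 ± 0.757 CPM in FL (log2 change 3.04 ± 0.141, edgeR adjusted p = 3e-09). Zwint, a kinetochore protein, was lower in delta45 (log2 change -0.72 ± 0.0924, edgeR adjusted p = 2.42e-05). In KD against control, 7 of 27 kinetochore genes were lower and 3 higher (median -0.19), the lower share being near the 24.1% of all tested genes. Of 31 spindle genes, 19 were lower and 3 higher (median -0.46), against 24.1% and 25.6% of all tested genes. Nek2, a centrosome kinase, was lower in KD (log2 change -1.05 ± 0.112, edgeR adjusted p = 9.27e-06), Cdc25c too (log2 change -1.44 ± 0.110, edgeR adjusted p = 6.41e-07), and Mybl2 was higher (log2 change 0.82 ± 0.127, edgeR adjusted p = 0.000163).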

How the data were processed

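Polyadenylated RNA of 12 libraries was measured. Per the labels' protocols, RNeasy was used for RNA and the strandless TruSeq RNA kit V2 for libraries. The submitters' processing notes name cutadapt 1.1, TopHat 1.4.1, HTSeq 0.5.3p9, DESeq 1.10.1 and build mm9, and the sources used here do not give their order or settings. The authors deposited raw counts per Ensembl gene. Each file ends with 5 rows that name no gene, 46.31 to 57.69% of tallied reads, which entered neither library sizes nor tests. Symbols came from a supplied table, which named 32919 of the 37991 identifiers. Genes were kept by filterByExpr, TMM-scaled and tested by edgeR 4.0.16 in R 4.3.3 (glmQLFit and glmQLFTest) with a mean for each of 4 groups, and 6 comparisons were made. Standard errors are the log2 change divided by the root of F. The smallest two-sided exact p of 3 against 3 libraries is 0.1, so calls rest on spread shared across genes. The members and lists were chosen with earlier results of these data known, and no list was tested as a set. By-library values were given by rule for the genes with the smallest adjusted p of each role in 3 comparisons, genes not called in FL against KD, genes called against the majority, and Foxm1. Replicate numbers were checked for pairing. Deviations of same-numbered libraries correlated at 0.121 to 0.29 between FL and KD. They correlated at 0.102 to 0.294 between delta45 and KD, again above 0.1 for each pair. Between delta45 and FL the correlations were 0.315, 0.206 and 0.054 for replicates 1, 2 and 3. Between each of these groups and control the correlations of same-numbered libraries had both signs. Libraries with different numbers also correlated, at 0.135 for FL replicate 2 with KD replicate 3. The highest correlation of all was 0.451, for delta45 replicate 1 with control replicate 3. The fit was tested on simulated counts, for FL against KD only. Of 50 genes changed 1.5-fold in those counts, 20% were called. The share called was 82% at 2-fold, 96% at 4-fold and 98% at 8-fold, and 4 unchanged genes were called. In the libraries themselves, Cenpa, Cenpt, Smc4 and Bub3 were called in FL against KD at 1.49-fold, 1.38-fold, 1.35-fold and 1.24-fold lower. Mis12, 1.24-fold higher there, was not called. How often changes near 1.5-fold were missed among the mitotic genes was not tested. Libraries within a group differed by more than counting noise in each pair (chi-square per degree of freedom of 2.216 or more). Alternatives were RLE scaling, library totals only, other count filters, DESeq2 1.42.0, a 2-group fit, a replicate block, globin genes left out and leaving out each library.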

Additional observations from a re-analysis of the deposited data

Results flagged for a closer look

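Of the 50 mitotic genes, 49 differed between the delta45 and FL lines, both made from knockdown cells and with 4.49-fold lower Ldb1 mRNA in delta45, by edgeR's test of delta45 against FL itself (adjusted p under 0.05), where 52.8% of all tested genes differed in either direction. Groups of 3 libraries are too small for a test of single outlying libraries.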

How the results depend on the processing

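Of 336 summary values recomputed under the alternatives, 317 stayed within a set bound and 19 moved. The bound was 1.5-fold for a count, and for a median the SD between libraries of the mitotic genes' mean level. Within it, a fit of only the 2 groups compared took all genes called in KD against control from 6380 to 4606. In delta45 against FL that fit took them from 6778 to 8370. Over all 50 genes, 6 comparisons and 14 alternatives (4200 cases), 94 calls were lost and 30 gained, and no called value changed sign. With library totals only, the all-gene median moved by -0.27 (log2) in FL against KD, 0.28 in delta45 against FL and -0.22 in FL against control. The medians of the mitotic genes were then -2.11, 2.64 and -2.54, and FL against control had 0 mitotic genes higher by edgeR. The share of higher genes among all called was then 26.7% in FL against KD (45.4% as reported), 70.8% in delta45 against FL (51.2%) and 31.8% in FL against control (47.4%). Under the same scaling Cenpa went to 0.009 in delta45 against FL and Smc4 to -0.0575 in FL against control. FL against KD had 1 mitotic gene higher with RLE scaling and with DESeq2, delta45 against FL had 1 lower with DESeq2, and KD against control had 2 higher when only the 2 groups compared were fitted. Leaving out 1 library at a time gave 25 to 32 mitotic genes lower and 2 to 5 higher in KD against control, 47 to 49 lower and 0 to 1 higher in FL against KD, 31 to 34 higher and 1 to 3 lower in delta45 against KD, 48 higher and 0 to 1 lower in delta45 against FL, and 47 to 48 lower and 1 to 2 higher in FL against control. The medians of the mitotic genes then ran from -0.55 to -0.42, -1.87 to -1.76, 0.45 to 0.57, 2.30 to 2.39 and -2.40 to -2.21 in the same comparisons. Where no value shows it, the cause was not tested. With the replicate block, 49 mitotic genes were lower in FL against KD and 34 higher and 3 lower in delta45 against KD. That block, which pairs libraries by number, changed no call of a mitotic gene in any of the 6 comparisons. Other pairings with control were not tested. The levels are limited by 8 reads at the lowest (Cenpm), and Ldb1 reads of a construct were not separated from the cells' own.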
